A study of Mus musculus with 18 samples.

Results

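Integrin subunits were followed through the RNA of embryonic mouse lungs: the α subunits Itga1, Itga3, Itga5, Itga6, Itga8, Itga9 and Itgav and the β subunits Itgb1, Itgb5 and Itgb8. They were chosen by name, and make up 10 of the 23420 genes that each deposited table lists. Bulk RNA-Seq had been carried out in 3 experiments, each with 3 libraries from mutant lungs and 3 from control lungs, to find which genes change when Wnt5a or the planar cell polarity proteins Vangl1 and Vangl2 are lost. In the Vangl1/2 experiment (E12.5), the mutants were Vangl1-/-; Vangl2-/- and the controls Vangl1-/-, so that both groups lacked Vangl1 and differed in Vangl2. The Vangl1 allele is a gene trap, and per the study's text the Vangl2 null allele came from a floxed one through early, ubiquitous Sox2-Cre. In the Dermo1Cre experiment (E12.5), Wnt5af/f; Dermo1Cre mutants were set against Wnt5af/+; Dermo1Cre controls, with the Cre active in mesenchyme. In the Sox9Cre experiment (E13.5), Wnt5af/f; Sox9Cre mutants were set against Wnt5af/+; Sox9Cre controls, with the Cre active in epithelium and, per the study's text, only after early branching had begun. The controls of both Wnt5a experiments therefore carried the Cre and 1 floxed allele. The number of embryos behind each library, and whether libraries came from separate litters, is not given in the sources used here, so p-values measure the spread between these libraries.

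Integrins are receptors made of 1 α and 1 β chain that cross the cell membrane and tie the extracellular matrix to the actin cytoskeleton through talin, kindlin and other adaptors of the focal adhesion. The β1 chain pairs with most of the α chains studied here, and the α chain largely sets the ligand: α1β1 binds collagens, α3β1 and α6β1 bind laminins, α5β1, α8β1 and αv integrins bind proteins with the Arg-Gly-Asp motif such as fibronectin and nephronectin, and α9β1 binds tenascin-C, the EDA segment of fibronectin and other ligands. Integrins αvβ5 and αvβ8 share the αv chain, and αvβ8 activates latent TGFβ. In the developing lung, laminin receptors of the epithelium hold cells to the basement membrane, and Itga8 is known as a gene of the mesenchyme.

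Each value is a gene count that was divided by the size factor of its library. These normalized counts were scaled within each table only. Between 15945393 and 19814346 reads per library lay on genes, and each deposited value was a whole number of reads divided by its size factor. Within a table, limma set mutants against controls on log2(value + 1), its prior variance following mean expression. It tested the 14303, 14277 and 14293 genes that reached 10 normalized counts in 3 or more of the 6 libraries, and p-values were adjusted over those genes by the Benjamini-Hochberg method. All 10 integrin subunits were tested in all 3 experiments. With 3 libraries in each group a two-sided exact permutation p cannot fall below 0.1.

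The targeted genes were set against the labels, and of them only Vangl2 differed at an adjusted p under 0.05 by limma. Vangl2 had 277, 406 and 334 normalized counts in the Vangl1/2 controls and 86.5, 79.8 and 89.6 in the mutants, a log2 fold change of −1.96 ± 0.167 (SE, limma adjusted p = 0.0318). Vangl1, which carries the trapped allele in both groups, had 162, 219 and 113 against 239, 274 and 242. Wnt5a had 472, 429.6 and 489 in the Dermo1Cre controls and 317, 436 and 229.7 in the mutants, so that mutant replicate 2 lay within the controls. It had 473, 453 and 426 against 442, 362 and 448 in the Sox9Cre experiment. The log2 fold changes of Wnt5a were −0.55 ± 0.187 (SE, limma adjusted p = 0.406) and −0.12 ± 0.0969 (SE), and its groups overlapped in both experiments. A loss of Wnt5a was thus not visible in the Sox9Cre libraries. The values are counts of whole genes and do not show a floxed exon apart. Of the 3 Vangl1/2 controls, replicates 1 and 3 stood apart from the other 4 libraries. Their scores on principal component 1, which held 51.7% of the variance, were −30.1 and −44.7, whereas control replicate 2 scored 17.0 and the mutants 15.1 to 21.5. The same libraries differed by transcript length. With genes ordered into 5 equal bins by exon length and each value taken relative to the gene's mean, the median log2 value of the longest bin minus that of the shortest was −0.47 and −0.54 in control replicates 1 and 3, 0.18 in control replicate 2 and 0.23 to 0.36 in the mutants. The Vangl1/2 comparisons of the subunits are therefore also given without control replicate 2, with each library's trend on exon length removed, or with both.

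By the GENCODE annotation of GRCm38, the build that mm10 stands for, the collagen receptor gene Itga1 lies at chr13:114953096-115101964 on the minus strand. The laminin receptor genes lie at chr11:95044474-95076801 (Itga3, minus strand) and chr2:71745616-71858416 (Itga6, plus strand). The chains that recognize Arg-Gly-Asp lie at chr15:103344286-103366763 (Itga5, minus strand), chr2:12106632-12301922 (Itga8, minus strand) and chr2:83724397-83806916 (Itgav, plus strand), and Itga9 at chr9:118606690-118901003 on the plus strand. The β chains lie at chr8:128685654-128733200 (Itgb1, plus strand), chr16:33829665-33949338 (Itgb5, plus strand) and chr12:119158022-119238802 (Itgb8, minus strand). Counts were made over whole genes, so isoforms and single exons are not told apart.

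To compare levels between subunits, reads were divided by the length of all exons of a gene and by the library's total of reads on genes, which gives RPKM, computed here from the recovered reads. Itgb1, the β chain shared by most of these receptors, stood far above the others on this scale. In the Dermo1Cre controls it reached 209.9 ± 4.19 (SD, n = 3) RPKM, 6.06 times Itgb5, the partner of αv in a vitronectin receptor, at 34.6 ± 0.143. Itgb1 alone took 45.3% to 53.1% of all reads on the 10 subunits over the 18 libraries, and the 10 subunits together took 0.119% to 0.181% of the reads on genes.

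Among α chains the fibronectin receptor subunit Itga5 was the most abundant in the Dermo1Cre controls, with 24.0 ± 1.26 (SD, n = 3) RPKM. Itga8, the nephronectin receptor subunit, followed at 19.4 ± 0.151, and Itga9 and the laminin receptor subunit Itga3 stood at 16.0 ± 0.956 and 15.7 ± 0.561, with overlapping ranges. Itga6, the other laminin receptor subunit, had 12.4 ± 0.648 and Itgav 8.15 ± 0.744. The collagen receptor subunit Itga1 came much lower, at 2.49 ± 0.156, and Itgb8, the chain of the TGFβ-activating receptor, lowest of all at 0.322 ± 0.0131. The annotated exons of Itga1 span 18.6 kb and those of Itgb8 11.06 kb, against 3.553 kb for Itgb5, so levels per kb depend on how much of the annotated exon is used.

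The order was nearly the same in the Sox9Cre controls at E13.5, from Itgb1 at 209.8 ± 11.9 (SD, n = 3) RPKM through Itgb5 (36.4), Itga5 (24.0), Itga8 (19.9), Itga3 (17.1), Itga9 (16.4), Itga6 (11.7), Itgav (8.77) and Itga1 (2.43) to Itgb8 (0.342). Itga3 and Itga9 again overlapped, and no other neighbours in the order did. In the Vangl1/2 controls the spread was wider, and Itga5 (21.8 ± 5.18, SD, n = 3), Itga8 (15.7 ± 5.20) and Itga3 (13.3 ± 4.06) each overlapped with the next, the last of them with Itga9 (11.6 ± 2.51). Itga6 (6.92 ± 1.99) and Itgav (6.01 ± 2.26) overlapped as well.

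**Figure D1:**
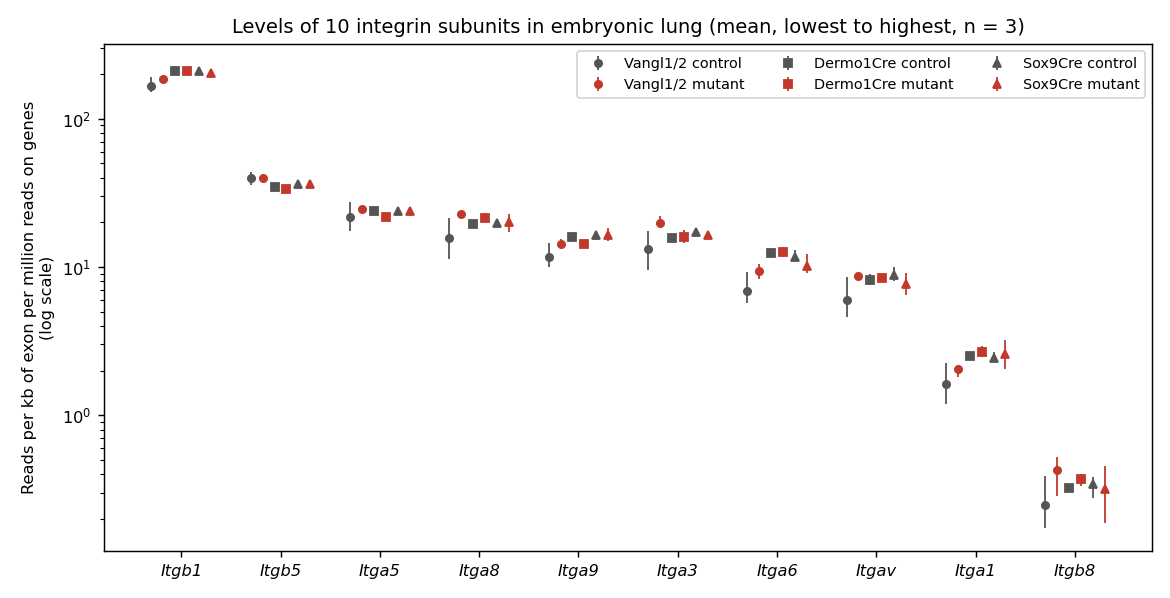
Level of each integrin subunit (horizontal axis) in RPKM, reads per kb of exon scaled to the reads on genes (vertical axis, log scale), with the mean as a point and the lowest to highest of 3 libraries as a bar, for controls (grey) and mutants (red) of the 3 experiments. Itgb1 lies at the top in every group and Itgb8 at the bottom, and the Vangl1/2 controls have the longest bars of the 3 control groups for all 10 subunits.

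In the Vangl1/2 experiment the subunits pointed upward in the mutants, most of all the αv, α8, α3 and α6 chains and Itgb8. The estimates of Itgb1 and Itgb5, whose annotated exons are the shortest of the 10 (4.081 and 3.553 kb), lay nearest to 0. The log2 fold change was above 0 for 9 of 10 subunits, where 48.8% of all genes tested were above 0, and the median over the 10 was 0.40 against −0.0093 over all genes. None of the 10 passed at an adjusted p under 0.05 by limma, where 0.00699% of all genes did, and the smallest adjusted p among them was 0.233. At an unadjusted p under 0.05, 5 of 10 were higher in the mutants and 0 lower, where 20.5% of all genes passed, 12.0% as higher and 8.56% as lower. By edgeR's quasi-likelihood test and by DESeq2 on the recovered reads, 0 of 10 passed as well.

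The α8 chain pairs with β1 and serves as the receptor of nephronectin. Itga8 had 2069.7, 2918 and 1693 normalized counts in the controls and 3303, 3111 and 3064 in the mutants. All 3 mutants lay above all 3 controls, and control replicate 2 came closest to them. The log2 fold change was 0.54 ± 0.181 (SE, 1.45-fold, limma adjusted p = 0.233), and the exact permutation p was 0.1, the smallest possible. An antisense gene, E030013I19Rik, shares 372 exon bases with Itga8. It reached at most 74.5 normalized counts in these libraries, and since the strand setting of the counting is not given in the sources used here, reads of the 2 genes cannot be told apart in the shared bases. Itgav shares 634 exon bases with Gm13684 on the opposite strand, and Itga1 shares 685 with Gm49395 on the same strand. No counts are given for Gm13684 or Gm49395.

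The α3 chain forms the laminin receptor α3β1 of epithelia. Itga3 had 1438, 1855 and 1100.3 normalized counts in the controls and 2103, 2389.6 and 1961 in the mutants, again without overlap. Its log2 fold change was 0.58 ± 0.182 (SE, 1.5-fold, limma adjusted p = 0.233, exact permutation p = 0.1). Itga3 and Itga8 were the 2 subunits of 10 whose groups did not overlap, where 22.3% of all genes tested did not overlap, 13.6% as higher and 8.68% as lower in the mutants.

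Itga6, which gives the laminin receptors α6β1 and α6β4, had 1040.0, 1536 and 1038 normalized counts in the controls and 1450.2, 1601 and 1775 in the mutants. Control replicate 2 lay above mutant replicate 1, so that the groups overlapped in 1 library. The log2 fold change was 0.44 ± 0.166 (SE, limma adjusted p = 0.233).

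The αv chain pairs with β1, β5 and β8, among others. Itgav had 1027, 1710.1 and 994 normalized counts in the controls and 1658, 1765 and 1862 in the mutants, with control replicate 2 above mutant replicate 1 only. Its log2 fold change was 0.55 ± 0.198 (SE, limma adjusted p = 0.233). Itgb8 was counted far less, with 38.2, 80.1 and 38.9 in the controls and 60.4, 110.4 and 97.5 in the mutants, and 1 control lay above the lowest mutant. Its log2 fold change was the largest of the 10 and the least precise, at 0.80 ± 0.344 (SE, limma adjusted p = 0.241).

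The other subunits differed by less. Itga9 had 1511, 2059.5 and 1613 normalized counts in the controls and 2061, 1968 and 2232 in the mutants, a log2 fold change of 0.28 ± 0.13 (SE, limma adjusted p = 0.253). Itga1 had 436, 774 and 533 against 652, 765 and 757, a log2 fold change of 0.36 ± 0.199 (SE, limma adjusted p = 0.307). Control replicate 2 lay between the mutants in Itga9 and above all of them in Itga1.

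Itga5, the classical fibronectin receptor chain, had 1991, 2511 and 1745 normalized counts in the controls and 2273, 2365 and 2245 in the mutants, a log2 fold change of 0.16 with a 95% interval of −0.15 to 0.47. Itgb1 had 12181, 14443 and 12820.1 against 14280.4, 14038 and 14505, a log2 fold change of 0.12 with a 95% interval of −0.11 to 0.36. Itgb5 had 2859, 2845 and 2581 against 2647, 2849 and 2522, and was the single subunit below 0, at −0.048 with a 95% interval of −0.26 to 0.17. The intervals of Itga5 and Itgb1 take in a change of the size seen in Itga9, and that of Itgb5 does not.

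**Figure D2:**
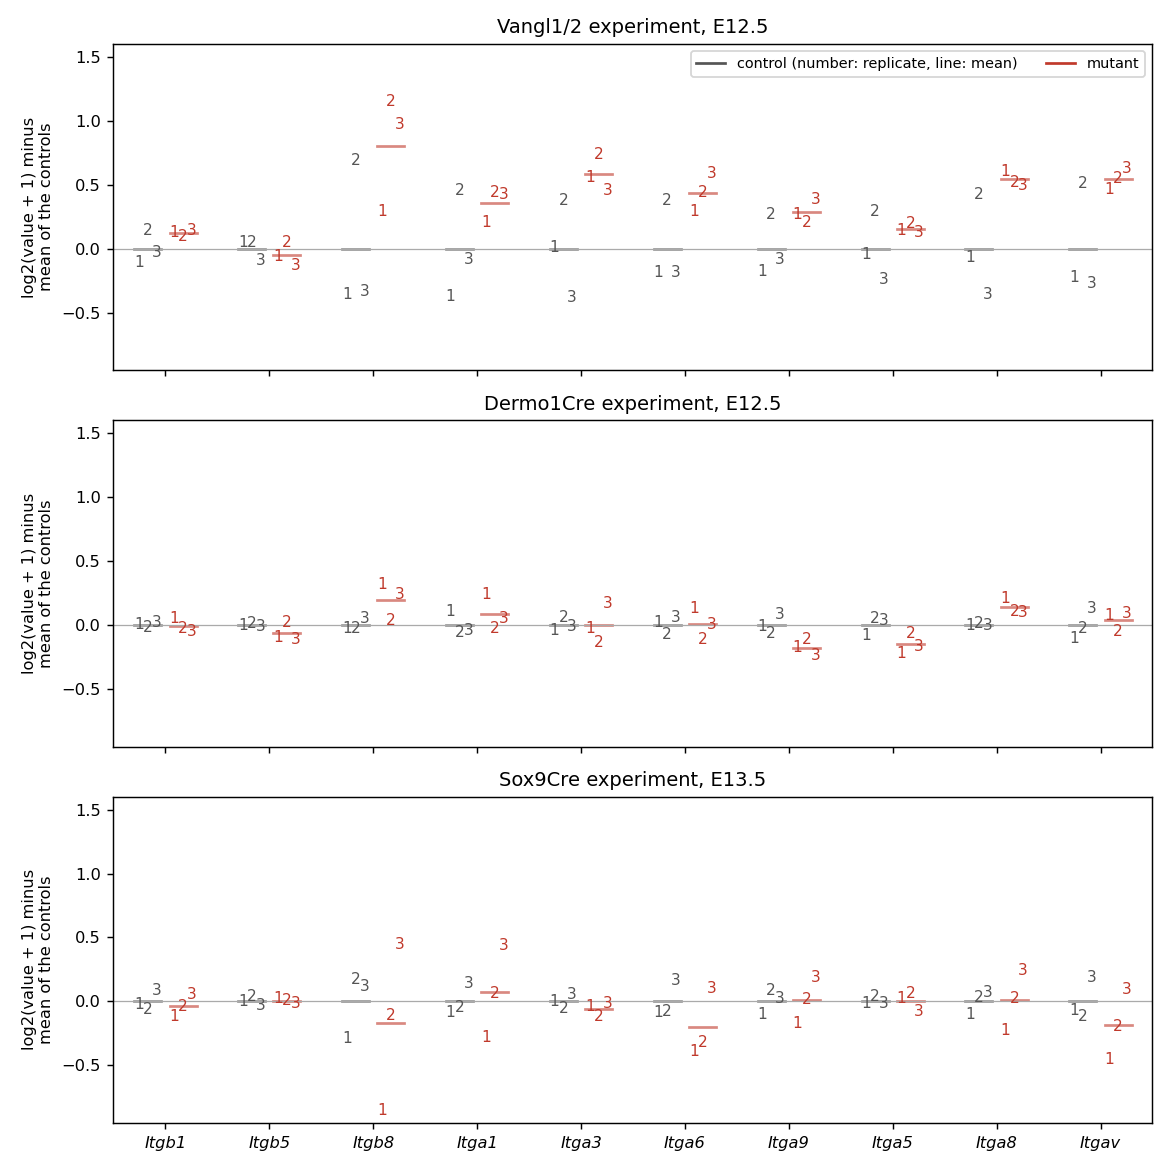
Each integrin subunit (horizontal axis) in each library, as log2(value + 1) minus the mean of the 3 controls of the same experiment (vertical axis), in 3 panels for the Vangl1/2, Dermo1Cre and Sox9Cre experiments. Digits mark the replicate, controls in grey and mutants in red, and short lines the group means. In the top panel the grey 2 is the highest control for 9 of the 10 subunits and lies near the mutants, and the middle panel has the least spread.

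Control replicate 2 was the highest control for 9 of 10 subunits, Itgb5 excepted, and it decides how the comparison reads. With it left out, 9 of the 10 subunits were higher in the mutants at an adjusted p under 0.05 by limma and only Itgb5 was not, but 43.2% of all genes tested then passed, 21.5% as higher and 21.7% as lower in the mutants. Leaving out control replicate 2, chosen because it lay with the mutants on principal component 1, left 2 controls. Removing the control nearest the mutants widens the difference and narrows the control spread by construction. Adjusted p-values without this library, here and below, are therefore no independent test. With a different library left out, the adjusted p reached 0.596 for Itgav, Itga3, Itga8, Itga6 and Itgb8. Without control replicate 2, Itgav had a log2 fold change of 0.80 ± 0.0760 (SE, limma adjusted p = 7.5e-05). Itga3 had 0.77 ± 0.118 (adjusted p = 6.4e-04), Itga8 0.75 ± 0.0889 (adjusted p = 1.7e-04) and Itga6 0.63 ± 0.0902 (adjusted p = 4.6e-04). Itgb8 reached 1.15 ± 0.269 (adjusted p = 0.00640). At an unadjusted p under 0.05, 9 of 10 passed as well, against 50.6% of all genes. Library weights, which give a poorly fitting library less say, gave 9 of 10, against 62.2% of all genes at an adjusted and 66.0% at an unadjusted p under 0.05. The estimate of the weights stopped before it converged, and it rests on the same libraries, so it is no separate support. Without control replicate 2, Itgb1 passed with a small change of 0.19 ± 0.0657 (adjusted p = 0.0380), Itga5 with 0.30 ± 0.0760 (adjusted p = 0.00977). Vangl2 levels put control replicate 2 with the controls, at 406 normalized counts.

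Exon length moved with these changes. Over all genes tested, the median log2 fold change rose from −0.26 in the shortest bin to 0.28 in the longest, and the annotated exons of the integrin subunits run from 3.553 kb (Itgb5, the subunit below 0) to 18.6 kb (Itga1). With each library's trend on exon length removed, the median over the 10 subunits fell to 0.18, and Itga3 (log2 fold change 0.50) and Itga8 (0.38) were the 2 that kept an unadjusted p under 0.05, where 13.9% of all genes did in either direction. Itgav came to 0.26 and Itga6 to 0.21, and Itga1, whose exons are the longest, turned to −0.11 ± 0.113 at an adjusted p of 0.623 by limma. Adjusted p-values were 0.355 or more for all 10.

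With the trend removed and control replicate 2 left out, 6 subunits passed at an adjusted p under 0.05 by limma, against 28.0% of all genes and 12.1% as higher in the mutants. These were Itga3 (log2 fold change 0.66, adjusted p = 0.00342), Itga8 (0.53, adjusted p = 0.00231), Itgav (0.40, adjusted p = 0.00300), Itga6 (0.31, adjusted p = 0.0222), Itga5 (0.26, adjusted p = 0.0263) and Itgb1 (0.24, adjusted p = 0.0209). Itga9 (0.18), Itgb8 (0.73), Itgb5 (0.077) and Itga1 (−0.080) did not pass. At an unadjusted p under 0.05, 8 of 10 passed, against 39.9% of all genes. The log2 fold changes of Itga3, Itga8 and Itgb8 were 0.38 or more in each of these 4 fits, while those of Itga1 and Itgb5 changed sign. For Itgb8 they were 0.80, 0.50, 1.15 and 0.73, and of its 4 adjusted p-values 1 was under 0.05.

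**Figure D3:**
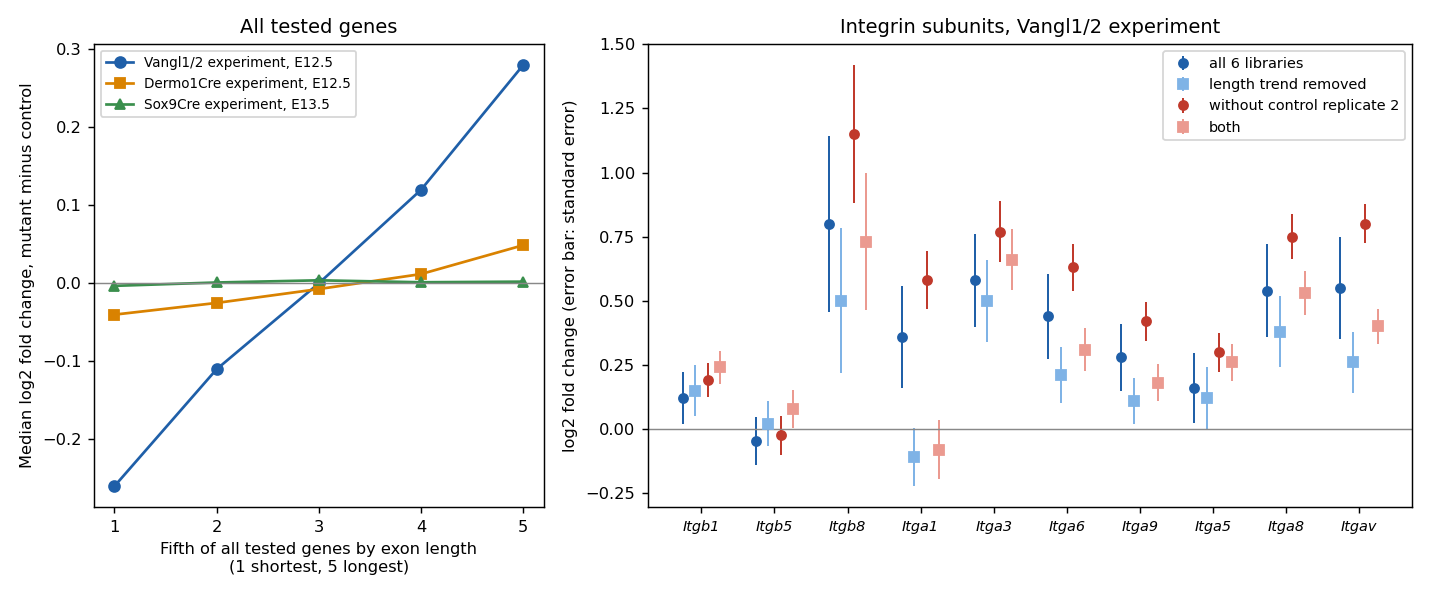
Left, median log2 fold change of all tested genes (vertical axis) by bin of exon length (horizontal axis, 5 bins from shortest to longest) in the 3 experiments, rising from −0.26 to 0.28 in the Vangl1/2 experiment and nearly flat in the Sox9Cre experiment. Right, log2 fold change with its standard error for each integrin subunit of the Vangl1/2 experiment in 4 fits: all 6 libraries, each library's length trend removed, control replicate 2 left out, and both.

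Set against Itgb1, whose annotated exons are shorter than those of every α chain, the pool of α chains separated the Vangl1/2 groups only before the length trend was removed. The 7 α chains summed per kb reached 0.458, 0.528 and 0.389 times Itgb1 per kb in the controls, and 0.542, 0.569 and 0.539 times in the mutants, with no overlap. With the trend removed the ratios were 0.504, 0.509 and 0.434 in the controls and 0.516, 0.542 and 0.50 in the mutants, and the groups overlapped. In the other 2 experiments this ratio ranged from 0.456 to 0.50 in the controls and from 0.448 to 0.491 in the mutants, with overlap in both. Within the α pool, Itga5 took 29.5%, 27.2% and 28.9% in the Vangl1/2 controls and 24.3%, 24.5% and 23.8% in the mutants, a lower share in every mutant, and control replicate 2 held the lowest share of the controls. The laminin receptor chains Itga3 and Itga6 took 26.8%, 26.5% and 25.2% against 27.9%, 30.4% and 28.2%, a higher share in every mutant. The Itga8 share was higher in every mutant both there, with 20.5%, 21.2% and 18.8% against 23.6%, 21.6% and 21.7%, and in the Dermo1Cre experiment, with 20.1%, 19.9% and 19.2% against 22.9%, 22.1% and 21.4%. With the trend removed, these shares still did not overlap, with 27.0% to 27.9% against 24.9% to 25.3% for Itga5 in the Vangl1/2 experiment, 25.1% to 26.8% against 28.0% to 30.6% for Itga3 and Itga6, and 19.1% to 21.1% against 21.4% to 23.5% for Itga8. The Itga8 share in the Dermo1Cre experiment was then 19.3% to 20.1% against 21.4% to 22.9%. Other shares overlapped between the Vangl1/2 groups before the trend was removed. Itga5, Itga8 and Itgav together took 57.1%, 56.9% and 55.3% in the controls and 56.1%, 54.4% and 54.5% in the mutants. Itga9 took 14.4%, 14.3% and 17.2% against 14.1%, 13.1% and 15.2%, and Itga1 1.71% to 2.34% against 1.85% to 2.13%. Shares of a pool are not independent of each other, and these have no test of their own.

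The RefSeq promoters (GRCm38.p6) of Itga8, Itga3 and Itgb5 are shown, 250 bases up to the annotated start, because the groups of the first 2 did not overlap in the Vangl1/2 experiment and Itgb5 was nearest to 0. They were chosen after these values were seen. Capitals mark GC boxes, written GGGCGG or, on the other strand, CCGCCC, the site bound by Sp1 and its relatives. The Itga8 window lies at chr2:12301945-12302194 on the minus strand, that of Itga3 at chr11:95076715-95076964 on the minus strand, and that of Itgb5 at chr16:33829415-33829664 on the plus strand.
Itga8: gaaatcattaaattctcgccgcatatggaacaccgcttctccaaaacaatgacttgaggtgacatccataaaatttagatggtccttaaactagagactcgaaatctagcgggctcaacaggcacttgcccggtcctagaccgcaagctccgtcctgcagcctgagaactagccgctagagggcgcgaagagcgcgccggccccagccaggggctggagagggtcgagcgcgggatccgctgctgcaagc
Itga3: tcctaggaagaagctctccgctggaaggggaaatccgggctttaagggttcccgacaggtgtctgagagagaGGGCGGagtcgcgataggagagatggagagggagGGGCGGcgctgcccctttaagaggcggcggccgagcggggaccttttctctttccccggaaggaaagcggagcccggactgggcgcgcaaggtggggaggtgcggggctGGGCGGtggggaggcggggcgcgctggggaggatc
Itgb5: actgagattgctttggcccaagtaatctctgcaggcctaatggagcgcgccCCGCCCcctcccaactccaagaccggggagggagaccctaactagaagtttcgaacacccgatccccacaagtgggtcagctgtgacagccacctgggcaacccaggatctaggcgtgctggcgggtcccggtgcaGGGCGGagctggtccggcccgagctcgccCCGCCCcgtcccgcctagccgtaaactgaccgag
Itga8 had 0 GC boxes, Itga3 had 3 and Itgb5 had 3. Promoters were found for 9 of the 10 subunits, in 10 entries of which 2 are for Itga3. Of these 10 windows 5 held a GC box, against 32.7% of the 32851 promoters of the same length, 0 held TATAAA on either strand (12.4% of all) and 0 the AP-1 motif TGANTCA (6.75% of all). Their GC content ran from 50.8% to 68%, against a median of 52.4% over all promoters. For Itga8 and Itga5 the RefSeq start lies upstream of the GENCODE gene models used for length.

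In the Dermo1Cre experiment the groups were tight, and the differences small: Itga8 was slightly higher in the mutants, Itga9 and Itga5 slightly lower, and the laminin receptor chains, αv and β1 lay near their control levels. The log2 fold change was above 0 for 6 of 10 subunits, where 50.3% of all genes were, and the median was 0.0039 against 0.00071 over all genes. None of the 10 passed at an adjusted p under 0.05 by limma, where 0.0140% of all genes did, and 0 of 10 passed by edgeR or DESeq2. At an unadjusted p under 0.05, 1 subunit was higher and 2 were lower, where 10.2% of all genes passed, 5.42% as higher and 4.76% as lower.

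Itga8 had 2288, 2319 and 2294 normalized counts in the controls and 2650.1, 2481 and 2464 in the mutants. The groups did not overlap, and the controls lay close together. The log2 fold change was 0.14 ± 0.0423 (SE, 1.1-fold, limma adjusted p = 0.355), and the exact permutation p was 0.1. The difference was of the same direction as in the Vangl1/2 mutants, with a smaller estimate, and the difference between the 2 effects was 0.39 ± 0.196 (SE, limma adjusted p = 0.315).

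Itga9 had 1962, 1884 and 2089.7 normalized counts in the controls and 1749.6, 1827 and 1672 in the mutants, where every mutant lay below every control. Its log2 fold change was −0.18 ± 0.0527 (SE, 0.884-fold, limma adjusted p = 0.344, exact permutation p = 0.1), the smallest adjusted p of the 10. Itga5 had 1796, 1970.2 and 1948 against 1632, 1818 and 1693, and mutant replicate 2 lay above control replicate 1. Its log2 fold change was −0.15 ± 0.0553 (SE, limma adjusted p = 0.426). The groups did not overlap for 2 of the 10 subunits, 1 higher and 1 lower, where 15.6% of all genes did not overlap, 7.65% as higher and 7.92% as lower.

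Mutant replicate 2, whose Wnt5a lay within the controls, had for Itga5 and Itga9 the value nearest to the controls. Without it the log2 fold changes were 0.15 for Itga8, −0.21 for Itga9 and −0.20 for Itga5, with adjusted p-values of 0.257, 0.215 and 0.227 by limma. For Itga9 and Itga5, removing the mutant nearest the controls widens the difference by construction, so these values are no independent test. In all 6 libraries, removal of the length trend left Itga8, Itga9 and Itga5 at 0.12, −0.20 and −0.15. The same 3 of 10 had an unadjusted p under 0.05, against 9.44% of all genes.

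The other subunits overlapped between groups. Itgb8 had 56.1, 56.2 and 59.5 normalized counts in the controls and 71.6, 58.6 and 67.9 in the mutants, with mutant replicate 2 within the controls and a log2 fold change of 0.20 (95% interval −0.16 to 0.55). Itga1 had 802, 715 and 722 against 879, 732 and 774. Itgb5 had 1975, 1991 and 1967 against 1848, 2003 and 1825, with 2 mutants below the controls and 1 above, and a log2 fold change of −0.065 (95% interval −0.17 to 0.039).

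For the 4 remaining chains the intervals were narrow. The 95% interval of the log2 fold change was −0.16 to 0.17 for Itga3, −0.14 to 0.15 for Itga6, −0.11 to 0.18 for Itgav and −0.10 to 0.086 for Itgb1. Itgb1 had 13804, 13578 and 13942 normalized counts in the controls and 14292, 13537 and 13324 in the mutants. Changes of the size that Itga3 and Itgav had in the Vangl1/2 mutants lie outside these intervals.

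In the Sox9Cre experiment, at E13.5, no integrin subunit separated the groups. None of the 10 had an adjusted p under 0.05 by limma, and 0 had an unadjusted p under 0.05, where 0% and 3.90% of all genes did, the latter 1.08% as higher and 2.81% as lower. In DESeq2 and edgeR 0 passed an adjusted p under 0.05 too. The groups overlapped for all 10, where 8.78% of all genes did not overlap, 4.42% as higher and 4.36% as lower. The log2 fold change was above 0 for 4 of 10, against 50.7% of all genes, with a median of −0.018. With the length trend removed, 0 of 10 had an unadjusted p under 0.05, against 4.58% of all genes.

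The largest estimates were those of the laminin receptor chain Itga6 and of Itgav, both lower in the mutants. Itga6 had 1603, 1617 and 1910.3 normalized counts in the controls and 1299, 1363 and 1831 in the mutants, a log2 fold change of −0.20 ± 0.129 (SE, limma adjusted p = 1). Itgav had 1448, 1401 and 1729 against 1109, 1328 and 1623, a log2 fold change of −0.18 ± 0.135 (SE, limma adjusted p = 1). In both genes mutant replicates 1 and 2 lay below the controls and mutant replicate 3 among them.

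Itga8 had 2209, 2413 and 2488 normalized counts in the controls and 2027, 2406 and 2803 in the mutants, a log2 fold change of 0.014 with a 95% interval of −0.23 to 0.26. Itga9 had 1901, 2168 and 2072 against 1814, 2060.0 and 2321. Itgb8 had 49.6, 68.7 and 65.8 against 33.2, 56.3 and 83.0, a range in the mutants wide enough to take in all the controls. In each of these 3 genes mutant replicate 1 was the lowest library and mutant replicate 3 the highest.

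The spread lay between the mutants themselves. Mutant replicate 1 was the lowest mutant for 7 of 10 subunits and mutant replicate 3 the highest for 8 of 10, and the length measure moved with them, at −0.16, 0.011 and 0.16 in mutant replicates 1, 2 and 3. Its part in the spread was not tested. Itga1, the subunit with the longest annotated exons, spanned 602, 761 and 992 normalized counts in the mutants and 687, 706 and 804 in the controls.

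Itga3, Itga5, Itgb1 and Itgb5 were steadier. Itga3 had 1575, 1523 and 1641 normalized counts against 1540.0, 1457 and 1563 (log2 fold change −0.055, 95% interval −0.18 to 0.068). Itga5 had 1894, 1967 and 1891 against 1946, 1997 and 1811 (−0.00069, 95% interval −0.12 to 0.12). Itgb1 had 13649, 13235 and 14720.1 against 12786, 13458 and 14369.7 (−0.035, 95% interval −0.18 to 0.11). The groups of all 3 overlapped. Itgb5 had 2087, 2148 and 2042 against 2121, 2105 and 2074 (0.0055, 95% interval −0.10 to 0.11).

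**Figure D4:**
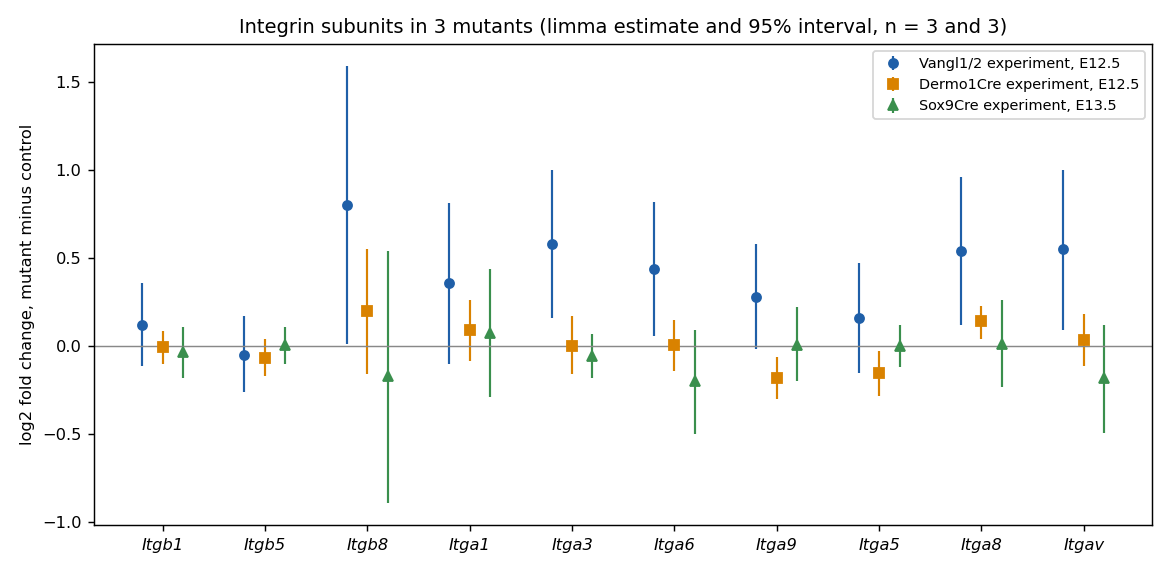
Log2 fold change of each integrin subunit (horizontal axis), mutant minus control, as limma's estimate with its 95% interval (vertical axis) in the Vangl1/2 (circles), Dermo1Cre (squares) and Sox9Cre (triangles) experiments, with 3 libraries per group. The intervals are widest in the Vangl1/2 experiment, where 5 of 10 lie wholly above 0, and they are not adjusted for the number of genes.

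The experiments share no libraries, and the difference between their effects was tested directly in 1 limma fit over all 18 libraries and 14927 genes on a log2 CPM scale, which corrects for depth across the tables. No subunit passed at an adjusted p under 0.05 in any of the 3 pairs, where 0.0134%, 0.0134% and 0% of all genes did. The Vangl1/2 effect exceeded the Dermo1Cre effect by 0.57 ± 0.186 (SE, limma adjusted p = 0.264) for Itga3 and by 0.45 ± 0.146 (adjusted p = 0.264) for Itga9, the chain that was lower in the Dermo1Cre mutants. Itgav (0.50) and Itga5 (0.30) also had an unadjusted p under 0.05, which makes 4 of 10 against 16.7% of all genes.

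Against the Sox9Cre effect, the Vangl1/2 effect was larger by 0.73 ± 0.232 (SE) for Itgav, 0.63 ± 0.186 for Itga3, 0.63 ± 0.201 for Itga6, 0.52 ± 0.196 for Itga8 and 0.97 ± 0.440 for Itgb8. These 5 of 10 had an unadjusted p under 0.05, against 24.1% of all genes, and the smallest adjusted p was 0.162 by limma. The Dermo1Cre and Sox9Cre effects differed at an unadjusted p under 0.05 for 0 of 10 subunits, against 2.91% of all genes. Without control replicate 2 of the Vangl1/2 experiment, 6 subunits passed at an adjusted p under 0.05 by limma against the Dermo1Cre effect, where 31.1% of all genes did, and 8 against the Sox9Cre effect, where 37.0% did. After removal of the length trend from all libraries, 0 passed in either pair, where 0.0214% and 0.0143% of all genes did. With both, 5 passed against the Dermo1Cre effect (20.6% of all genes) and 5 against the Sox9Cre effect (25.4% of all genes), and Itga3, Itga8 and Itgav were in both sets.

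Other integrin genes were tested for context, from lists written with earlier results of these data known. Of 17 other integrin subunits 14 could be tested, and Itgad, Itgax and Itgb2l fell under the filter. None of the 14 passed at an adjusted p under 0.05 in any experiment by limma. At an unadjusted p under 0.05, 2 were higher in the Vangl1/2 mutants, 1 was higher in the Dermo1Cre mutants and 1 was lower in the Sox9Cre mutants, where 12.0%, 5.42% and 2.81% of all genes were.

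Itga2, a collagen receptor chain, had 188, 329 and 195 normalized counts in the Vangl1/2 controls and 346, 371 and 349.6 in the mutants, without overlap (log2 fold change 0.63, limma adjusted p = 0.233). Itga4, which binds fibronectin and VCAM1, had 461, 797 and 449 against 717, 818 and 967 (0.59, limma adjusted p = 0.233). Itga2b, the platelet chain, had 92.2, 80.3 and 88.2 in the Dermo1Cre controls and 114, 96.3 and 144 in the mutants (0.42, limma adjusted p = 0.443). Itgal, a leukocyte chain, had 69.4, 59.7 and 49.9 in the Sox9Cre controls and 45.9, 39.2 and 37.9 in the mutants (−0.52, limma adjusted p = 1).

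The leukocyte and muscle chains were counted too low to say much. In the Vangl1/2 experiment Itgam, Itgb2, Itgb7, Itgae and Itga7 had between 6.04 and 42.4 normalized counts per library. The partners of αv and α6 that are not among the 10 did better: Itgb3 had 127, 160.3 and 70.4 against 172, 186 and 158 in that experiment (log2 fold change 0.60, limma adjusted p = 0.258), Itgb4 45.4, 93.2 and 38.9 against 50.3, 52.2 and 57.1, and Itgb6 28.9, 44.7 and 41.0 against 32.2, 29.6 and 56.1. Itga10 (0.51) and Itga11 (0.15) overlapped between groups. Without control replicate 2, 5 of the 14 passed at an adjusted p under 0.05 by limma, all higher, where 21.5% of all genes passed as higher: Itga2, Itga4, Itgb3, Itga10 and Itgal. With the length trend removed as well 3 passed, where 12.1% of all genes did as higher, and Itga10 (adjusted p = 0.0515) and Itgal (adjusted p = 0.0778) did not.

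The matrix ligands of integrins gave the largest differences around the subunits in the Vangl1/2 experiment. None of the 26 tested passed at an adjusted p under 0.05 by limma. At an unadjusted p under 0.05, 11 were higher and 1 was lower, against the background of 12.0% and 8.56%, and their median log2 fold change was 0.50. With the length trend removed the median was 0.31. Spp1 was the 1 lower gene at that threshold: it fell from 39.2, 69.0 and 39.9 normalized counts in controls to 25.2, 33.5 and 18.7 in mutants. The groups of Spp1 stayed apart, at a log2 fold change of −0.90 (limma adjusted p = 0.233), or −0.63 after removal of the length trend. Without control replicate 2, 21 of 26 were higher at an adjusted p under 0.05 by limma, where 21.5% of all genes were, and with the trend removed too 18 of 25, where 12.1% were.

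Npnt, which codes for nephronectin, the basement membrane ligand of α8β1, had 953, 1499 and 689 normalized counts in the Vangl1/2 controls and 1725, 1885 and 1598 in the mutants. As for Itga8 itself, every mutant lay above every control and control replicate 2 was the nearest. Its log2 fold change was 0.80 ± 0.247 (SE, limma adjusted p = 0.233), with 0.76 when the length trend was removed and 1.09 (adjusted p = 1.6e-04) without control replicate 2. Frem2, a member of the FRAS/FREM complex of basement membranes that anchors nephronectin, had 2725, 5813 and 1780.3 against 6953, 6982 and 6597, also without overlap (1.17 ± 0.360, limma adjusted p = 0.233), with 0.81 when the length trend was removed.

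Fras1 had 849, 1909 and 642 normalized counts against 1864, 2596 and 1855 in that experiment (log2 fold change 1.04, limma adjusted p = 0.233), and Frem1 had 2196, 3905 and 1922 against 3506, 3743 and 4101 (0.57, limma adjusted p = 0.240). In both, control replicate 2 lay among the mutants. After removal of the length trend, the log2 fold changes of Fras1 and Frem1 came down to 0.58 and 0.19, and without control replicate 2 they were 1.49 and 0.88 (limma adjusted p = 1.0e-04 and 8.4e-05). Egfl6, another Arg-Gly-Asp ligand of α8β1, had 613, 719 and 538 against 645, 824 and 635 (0.17, limma adjusted p = 0.505), with 0.31 when the length trend was removed and 0.49 (limma adjusted p = 0.0151) with control replicate 2 left out too. Where Itga8 was slightly higher, in the Dermo1Cre experiment, Npnt had 1903, 1950.1 and 1999.5 against 2071, 1893 and 2024 (0.032, limma adjusted p = 0.840). Frem2 had 3921, 4199 and 3883 against 5066, 4109.5 and 5081 there, with mutant replicate 2 within the controls (0.24, limma adjusted p = 0.375). In the Sox9Cre experiment the log2 fold changes of Npnt, Frem1, Frem2 and Fras1 were −0.086, 0.070, 0.033 and −0.16.

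**Figure D5:**
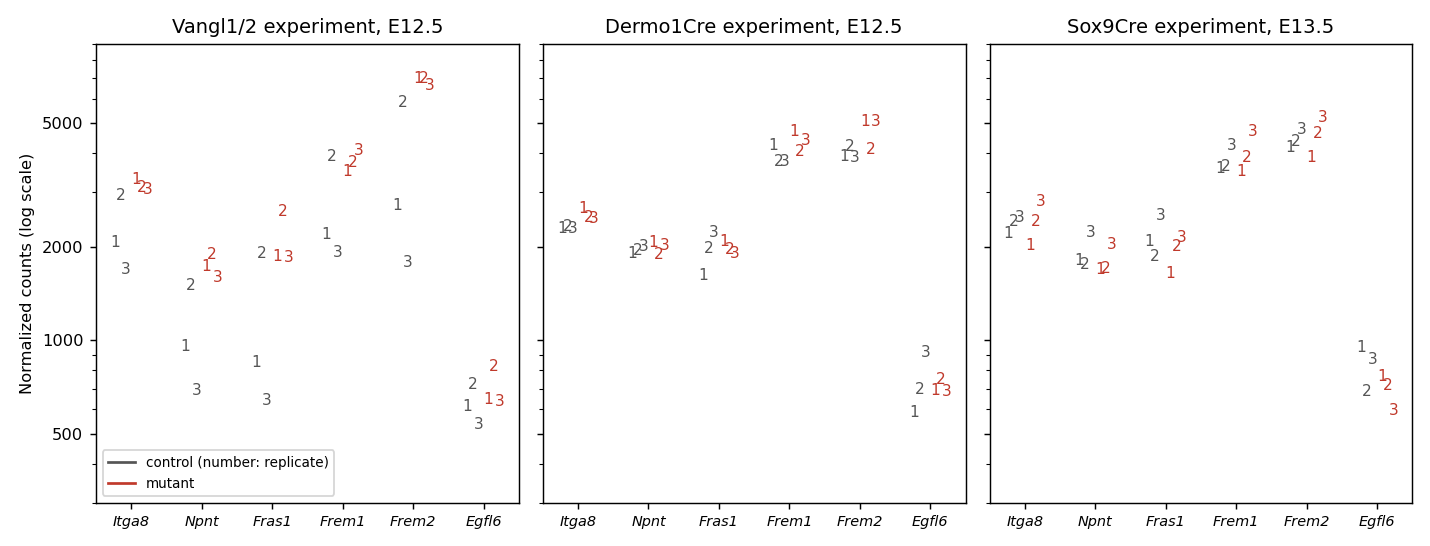
Normalized counts (vertical axis, log scale) of Itga8 and of the matrix genes Npnt, Fras1, Frem1, Frem2 and Egfl6 (horizontal axis) in each library of the 3 experiments, one panel each, with digits for the replicate, controls in grey and mutants in red. In the Vangl1/2 panel the mutants lie above all controls for Itga8, Npnt and Frem2, with control replicate 2 nearest to them.

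Fn1, the fibronectin bound by α5β1 and αv integrins, had 5870.4, 12323 and 4670.3 normalized counts in the Vangl1/2 controls and 9457, 11822 and 10447 in the mutants, where control replicate 2 was the highest of all (log2 fold change 0.60 ± 0.315, SE, limma adjusted p = 0.292). With the length trend removed the log2 fold change was 0.28, without control replicate 2 it was 1.01 ± 0.112 (limma adjusted p = 1.4e-04), and with both 0.57 (limma adjusted p = 0.00503). In the Sox9Cre experiment it had 12984, 11993 and 14368 against 10351, 11417 and 10913, lower in every mutant (−0.26 ± 0.0727, SE, limma adjusted p = 1). It had, in the Dermo1Cre experiment, 9939, 11499 and 13277 against 9904, 10739 and 9514 (−0.19, limma adjusted p = 0.508). Its receptor chain Itga5 was within the spread between replicates in the Sox9Cre experiment and lower at an unadjusted p under 0.05 in the Dermo1Cre experiment, as given above.

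Tnc, a ligand of α9β1, had 390.4, 1047 and 329 normalized counts in the Vangl1/2 controls and 409, 591 and 615 in the mutants (log2 fold change 0.048, limma adjusted p = 0.949). Control replicate 2 was the highest library, and without it the log2 fold change was 0.56 ± 0.169 (limma adjusted p = 0.0217), or 0.32 (limma adjusted p = 0.185) with the length trend removed too. In the Dermo1Cre and Sox9Cre experiments it was 0.044 and 0.14. Vtn, vitronectin, had at most 5.95 normalized counts in any library and was not tested. Over the ligand list, 5 genes were higher and 3 lower at an unadjusted p under 0.05 in the Dermo1Cre experiment, and 0 higher and 4 lower in the Sox9Cre experiment, of 26 tested in each. Of all genes 5.42% and 4.76% were higher and lower in the former, and 1.08% and 2.81% in the latter.

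Among proteins that bind the β tail, Tln1, talin, had 6069.8, 7819.6 and 5458 normalized counts in the Vangl1/2 controls and 7620.2, 8402 and 8244 in the mutants (log2 fold change 0.34, limma adjusted p = 0.236), with 0.085 when the length trend was removed and 0.49 (limma adjusted p = 6.2e-04) without control replicate 2. Fermt2, kindlin-2, had 4849, 4952 and 5373 against 4782, 5142 and 5301 (0.0049, limma adjusted p = 0.976). Of the 24 tail-binding genes tested 3 were higher and 4 lower at an unadjusted p under 0.05 in this experiment, where 12.0% and 8.56% of all genes were. They were 0 and 1 in the Dermo1Cre experiment, where 5.42% and 4.76% of all genes were, and 1 and 0 in the Sox9Cre experiment, where 1.08% and 2.81% were.

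Ptk2, focal adhesion kinase, had 2438, 2556 and 2507 normalized counts in the Vangl1/2 controls and 2527, 2623 and 2818 in the mutants (log2 fold change 0.086, limma adjusted p = 0.559), and −0.026 and 0.0050 in the other 2 experiments. The sign turned with the length trend removed, to −0.23, and to −0.35 ± 0.0635 (limma adjusted p = 0.00403) with control replicate 2 left out too. Ilk, integrin-linked kinase, had 3899, 3125 and 4057 against 3154, 3148 and 3052 (−0.24, limma adjusted p = 0.270), with −0.093 when the length trend was removed and −0.35 (limma adjusted p = 0.00149) without control replicate 2. Of the 21 genes of adhesion signaling, 2, 0 and 0 were higher and 0, 2 and 2 lower at an unadjusted p under 0.05 in the Vangl1/2, Dermo1Cre and Sox9Cre experiments, where 12.0%, 5.42% and 1.08% of all genes were higher and 8.56%, 4.76% and 2.81% lower. Of the 12 tetraspanins and lateral partners tested, 0 were higher at an unadjusted p under 0.05 in any experiment, against the same shares of all genes. At this threshold 1 was lower, in the Sox9Cre experiment. Without Vangl1/2 control replicate 2, 3 of the 12 were lower and 0 higher at an adjusted p under 0.05 by limma, where 21.7% and 21.5% of all genes were. With the length trend removed too, 0 passed. RNA levels of kinases do not report their phosphorylation.

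In bulk RNA, fewer cells of a type and less RNA per cell cannot be told apart, and markers of several cell types differed between libraries. In the Vangl1/2 experiment the 10 mesenchymal markers summed to 77497, 131891 and 59379 normalized counts in the controls and 98083, 123735 and 110782 in the mutants. Of the 10, 3 were higher and 1 lower at an unadjusted p under 0.05, where 12.0% and 8.56% of all genes were. Control replicate 2 had the highest sum. Col1a1, Col1a2 and Col3a1 held much of each sum, with 16896, 16672 and 27558 in control replicate 1. Among the controls, replicate 2 was highest for these collagens, Tbx4, Tbx5, Pdgfra and Fgf10, and lowest for Foxf1, Twist2 and Wnt2. The 10 epithelial markers summed to 15553 to 18819.7 in the controls and 15209.7 to 17989 in the mutants, with 0 of 10 past an unadjusted p of 0.05. Without control replicate 2, 7 mesenchymal markers were higher and 1 lower at an adjusted p under 0.05 by limma, and 4 epithelial markers were lower, where 21.5% and 21.7% of all genes were higher and lower. After removal of the length trend as well, 5 mesenchymal markers were higher and 1 lower, and of the epithelial markers 1 was higher and 0 lower. Of all genes 12.1% were then higher and 15.9% lower. In the fit of all 6 libraries, the 6 smooth muscle markers summed to 9128 to 13159.6 against 7119 to 10171, with 4 lower at an unadjusted p under 0.05. Mesothelial markers summed to 2540.1 to 3369.8 against 3327 to 5189, with 2 of the 4 tested higher. Of all genes 8.56% were lower and 12.0% higher at this threshold. No marker of these 4 lists was at 0 in every library, and their part in the differences of the subunits was not tested.

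Of the 10 markers of neurons and neural crest, 7 were higher in the Dermo1Cre mutants at an unadjusted p under 0.05, with sums of 543 to 918 against 1069.9 to 2387. At this threshold, 5.42% of all genes were higher and 4.76% lower in that experiment. The 6 smooth muscle markers summed to 11699 to 16231 against 7907 to 12673, with 5 lower, beside the lower Itga9 and Itga5, and the 10 epithelial markers to 16729 to 17535 against 15517 to 15851, with 5 lower. The 10 mesenchymal markers summed to 103816 to 120258 against 94523 to 105151, with 3 lower. Among these 3 was Twist2, with 319, 297 and 243 against 189.6, 187 and 145 (log2 fold change −0.72, limma adjusted p = 0.186). Per the study's methods Dermo1-Cre is an allele of Twist2 itself, so Twist2 is no neutral marker of mesenchyme in this experiment. In the Sox9Cre experiment 7 of 9 cardiomyocyte markers were lower at an unadjusted p under 0.05, with sums of 5220.2 to 18401 against 1030.2 to 5679.9. Mesothelial markers summed to 2930.2 to 3338 against 2326 to 2879.8, with 2 of 5 lower. Of all genes 2.81% were lower there. No marker of these lists was at 0 in every library, and their part in the values of the subunits was not tested.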

How the data were processed

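RNA of embryonic lungs was sequenced in 18 libraries. The authors deposited, for each experiment, a table of 23420 genes with a signal per library, which is the gene count divided by a size factor. Trim Galore, HISAT2, featureCounts, DESeq2 and the build mm10 are named in the submitters' processing notes, and versions, annotation and strand setting are not given in the sources used here. Further columns of the tables hold a mean over libraries and the log2 fold changes and p-values of the authors' comparison, which were not used. Dividing each value by 1 step per library gave whole reads for all values (tolerance 0.001 reads, largest deviation 3.7e-05). In 11 libraries the step lies so near 1 that a separate check could not tell it apart. The count tests on these reads served as alternatives.

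Of the gene names 27 per table had turned into dates. Normalized counts were put on the log2 scale with a pseudocount of 1 and fitted with limma 3.58.1 in R 4.3.3, with genes kept at 10 or more in at least 3 of 6 libraries, and Benjamini-Hochberg adjustment at 0.05. Libraries were grouped by their labels, and 0 library columns were left unassigned. Exon lengths and gene positions came from GENCODE M21 (GRCm38), which gave a length for 92.7% of names, and promoters from RefSeq (GRCm38.p6). Alternatives were edgeR 4.0.16, DESeq2 1.42.0, TMM scaling, no filter, pseudocounts of 0.5 and 5, removal of a smooth trend on exon length in each library, library weights, a replicate block and leaving out each library. The counts at an unadjusted p under 0.05, the fit with control replicate 2 left out and the trend removed, and the removal of the trend from the α pool and from the differences of effects, were added after the data were seen. The procedure was tested on simulated data. Figures were drawn with Python 3.11.15.

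The subunits and lists were chosen with earlier results of these data known. Named genes were the 10 subunits, all other integrin subunits that could be tested, Npnt, Fn1, Vtn, Tnc, Fras1, Frem1, Frem2, Egfl6, Tln1, Fermt2, Ilk and Ptk2, any further list gene at an adjusted p under 0.05 (0 were), and the targeted genes. Spp1 was added after the data were seen, as the 1 ligand lower in the Vangl1/2 mutants at an unadjusted p under 0.05.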

Additional observations from a re-analysis of the deposited data

How the results depend on the processing

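The count of integrin subunits at an adjusted p under 0.05 was 0 in all 3 experiments and stayed 0 with edgeR, DESeq2, TMM scaling, no filter, pseudocounts of 0.5 and 5 and the length trend removed. It moved in the Vangl1/2 experiment alone: to 9 with library weights, 0 to 9 over the fits that leave out 1 library (9 without control replicate 2 and 0 without any other), and 6 without control replicate 2 and with the length trend removed. The count of all genes moved there from 1 to 20 with DESeq2, 8901 with weights, 0 with the replicate block, 0 to 6183 with 1 library left out (most without control replicate 2) and 3754 in the last fit. In the Dermo1Cre experiment it moved from 2 to 100 with DESeq2, 66 with weights, 16 with the block and 0 to 54 with 1 library left out (most without mutant replicate 1), and in the Sox9Cre experiment from 0 to 9 with DESeq2, 352 with weights and 0 to 13 with 1 library left out (most without mutant replicate 1). The cause was not tested. The estimate of the weights stopped before it converged.

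Counts of subunits at an unadjusted p under 0.05, from 5 in the Vangl1/2 experiment, were 2 with the length trend removed, 9 with weights, 1 to 9 with 1 library left out (1 without control replicate 1, 9 without control replicate 2, 2 without control replicate 3, mutant replicate 2 or mutant replicate 3) and 8 in the last fit. In the Sox9Cre experiment they were, from 0, 3 with weights, 2 with the replicate block and 0 to 2 with 1 library left out (2 without mutant replicate 3). Of all genes in the Vangl1/2 experiment, 13.9% passed with the trend removed, 66.0% with weights, 50.6% without control replicate 2 and 39.9% in the last fit. For the other fits, and for all these Sox9Cre fits, the share of all genes is not given here. Those counts of subunits therefore cannot be set against a background. The median over the subunits in the Dermo1Cre experiment ran from −0.011 to 0.068, the highest without mutant replicate 2. Differences of effects passed for 6 (against Dermo1Cre) and 8 (against Sox9Cre) subunits without Vangl1/2 control replicate 2, for 5 and 5 with the length trend removed too, and for 0 in the other fits run.

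Signs turned for Itga1 (−0.11, and −0.080 in the last fit) and Itgb5 (0.021 and 0.077) in the Vangl1/2 experiment with the length trend removed. In the Dermo1Cre experiment they turned for Itga3 (−0.00053 with TMM scaling, −0.0036 with the trend removed, −0.082 to 0.071 with 1 library left out), Itga6 (−0.028 with the trend removed, −0.054 to 0.065), Itgav (−0.010, −0.017 to 0.10) and Itgb1 (0.0066, −0.036 to 0.014), and in the Sox9Cre experiment for Itga5 (0.049 with weights, −0.030 to 0.040), Itga8 (−0.10 to 0.13), Itga9 (−0.080 to 0.10), Itgb1 (−0.079 to 0.0088), Itgb5 (−0.012 to 0.024), Itgb8 (−0.48 to 0.17) and Itga1 (−0.11 to 0.25). All these estimates had adjusted p-values above 0.05.

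Whether replicate numbers pair the libraries, for example by litter, cannot be settled with 3 libraries in each group. Deviations of same-numbered control and mutant libraries correlated at 0.30, 0.049 and 0.013 in the Vangl1/2 experiment. They correlated at 0.073, −0.073 and −0.22 in the Dermo1Cre experiment and at 0.053, 0.13 and −0.12 in the Sox9Cre experiment. Differently numbered libraries reached at most 0.15, 0.34 and 0.16 in the 3 experiments. With the replicate block 0 subunits passed an adjusted p under 0.05. Depth limits Itgb8 most, with 33.2 to 110.4 normalized counts.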
